A study of Mus musculus with 8 samples.

Results

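The genes examined were 10 enzymes and readers that write, keep, remove or recognise DNA methylation, namely *Tet1*, *Tet2*, *Tet3*, *Tdg*, *Dnmt1*, *Uhrf1*, *Dnmt3a*, *Dnmt3b*, *Dnmt3l* and *Mbd2*. They were chosen by name, as the entries of the count table whose gene symbol is one of these, and each symbol matched 1 of the 55523 entries. The samples were EGFP-expressing cells sorted from the pituitary of Ad4BP-BAC-EGFP mice, a line in which a bacterial artificial chromosome drives EGFP in cells that express NR5A1 (Ad4BP), and which served in the study to isolate the hormone-producing gonadotropes. RNA was sequenced from 4 female and 4 male samples, all of this genotype and with no treatment named, and ages and pooling of animals are not given in the sources used here. Nothing states that samples of a sex came from separate animals, so p-values measure only the spread between these samples. Male replicate 1, which the study left out, is shown apart, and the sexes were compared as male replicates 2 to 4 against female replicates 1 to 4.

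DNA methylation in mammals is placed mainly on cytosines that precede a guanine (CpG). DNMT3A and DNMT3B set new methyl groups, DNMT3L helps them in germ cells although it has no catalytic activity of its own, and DNMT1 copies the pattern to the daughter strand after replication, guided by UHRF1. The TET dioxygenases oxidise the methyl group, TDG excises the further oxidised bases so that repair puts back a plain cytosine, and MBD2 binds methylated CpG and brings the NuRD repressor complex. Maintenance enzymes are known to be most abundant in dividing cells, whereas TET enzymes and DNMT3A are also found in cells that have left the cell cycle, such as neurons.

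Total counts lay between 18774578 and 31302588 in the females and between 24782710 and 28621582 in male replicates 2 to 4, and male replicate 1 had 22716536. Levels are given in CPM, counts scaled to a common library total with TMM factors over the 8 samples, and 3 counts, taken as the smallest level that can be told from 0, corresponded to between 0.0918 and 0.147 CPM. This floor covers counting error only. All 5 gonadotrope markers were detected, and their sum ran from 67410 to 76468 CPM in male replicates 2 to 4 and from 21524 to 34768 CPM in the female samples. The 2 somatotrope markers summed to 64420 to 143715 CPM in those males and to 12418 to 58215 CPM in the female samples, so transcripts of other hormone cells were abundant in the sorted material. In such bulk samples, fewer cells of a type and less RNA per cell cannot be told apart. Male replicate 1 stood apart in the nuclear RNAs *Malat1* and *Neat1*, which summed to 111082 CPM there and to at most 15220 CPM in the other 7 samples.

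The promoters of 4 members are printed because the results below turn on these genes. *Tet3*, *Tdg* and *Dnmt3b* were the members whose level was lower in each of male replicates 2 to 4 than in every female, and *Dnmt3a* was the member that split the females. Each window holds the 250 bases before and 50 bases after a RefSeq transcript start (GRCm38.p6), is read 5′ to 3′ on the strand of the gene, and shows each CpG in capitals. Of the 10 members, 9 have such a window here, and some have several. The *Tet3* window lies within the annotated gene (83362373 to 83459084), away from its upstream end, so it is that of an internal start. The same holds for the *Tet1* window counted below.
*Tet3* (chr6:83441629-83441928, minus strand): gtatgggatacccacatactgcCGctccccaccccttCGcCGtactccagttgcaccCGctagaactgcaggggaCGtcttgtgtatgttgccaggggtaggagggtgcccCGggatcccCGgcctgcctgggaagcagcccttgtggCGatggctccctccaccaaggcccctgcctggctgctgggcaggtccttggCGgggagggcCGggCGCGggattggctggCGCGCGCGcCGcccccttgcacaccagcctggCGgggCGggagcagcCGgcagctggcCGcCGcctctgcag
*Tdg* (chr10:82629588-82629887, plus strand): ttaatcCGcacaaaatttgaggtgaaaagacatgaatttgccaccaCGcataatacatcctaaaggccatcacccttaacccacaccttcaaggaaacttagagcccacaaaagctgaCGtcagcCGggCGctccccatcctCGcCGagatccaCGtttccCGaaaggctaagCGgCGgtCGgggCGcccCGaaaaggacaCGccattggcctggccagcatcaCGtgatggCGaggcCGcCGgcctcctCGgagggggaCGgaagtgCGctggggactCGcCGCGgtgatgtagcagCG
*Dnmt3b* (chr2:153649199-153649498, plus strand): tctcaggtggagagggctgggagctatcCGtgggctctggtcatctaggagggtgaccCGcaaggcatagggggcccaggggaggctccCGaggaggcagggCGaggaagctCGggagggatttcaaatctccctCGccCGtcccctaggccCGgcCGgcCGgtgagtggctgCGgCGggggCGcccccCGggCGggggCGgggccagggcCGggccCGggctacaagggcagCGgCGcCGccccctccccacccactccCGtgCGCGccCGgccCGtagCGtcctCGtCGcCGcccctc
*Dnmt3a*, upstream start (chr12:3806730-3807029, plus strand): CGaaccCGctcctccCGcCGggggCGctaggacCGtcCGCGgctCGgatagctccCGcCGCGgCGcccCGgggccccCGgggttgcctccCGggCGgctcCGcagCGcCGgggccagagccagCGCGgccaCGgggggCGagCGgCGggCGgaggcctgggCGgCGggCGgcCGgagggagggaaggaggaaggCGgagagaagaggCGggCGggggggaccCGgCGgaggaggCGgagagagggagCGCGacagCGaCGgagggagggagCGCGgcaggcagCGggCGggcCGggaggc
*Dnmt3a*, internal start (chr12:3891494-3891793, plus strand): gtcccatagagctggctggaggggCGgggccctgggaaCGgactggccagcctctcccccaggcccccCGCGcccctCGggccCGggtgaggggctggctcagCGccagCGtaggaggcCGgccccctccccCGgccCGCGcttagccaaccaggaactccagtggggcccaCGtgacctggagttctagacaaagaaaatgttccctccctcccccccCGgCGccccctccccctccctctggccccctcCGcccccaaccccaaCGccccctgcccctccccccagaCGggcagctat

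The median promoter window of the 32851 in the table holds 7 CpG. The *Tet3* window holds 22 CpG, a number that 23.1% of all windows reach, the *Tdg* window 26 (16.9% of windows) and the *Dnmt3b* window 30 (11.7%). The upstream *Dnmt3a* window holds 46 CpG, a number reached by 1.65% of windows, and the internal one 18, reached by 29.7%. Another upstream *Dnmt3a* window (chr12:3806910-3807209, plus strand), which overlaps the first and is not printed, holds 47 (1.44%). Among the windows not printed, that of *Tet2* (chr3:133544341-133544640, minus strand) was densest, with 57 CpG, reached by 0.152% of windows, and that of *Tet1* (chr10:62887275-62887574, minus strand) holds 17 (31.4%). Because the cells were sorted for NR5A1, the letters CAAGGTCA, which NR5A1 is known to bind, were searched on both strands. They are in 1.56% of all windows and in 0 of the 16 windows of these members, which says only that these letters are not in these 300 bases.

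**Figure D1:**
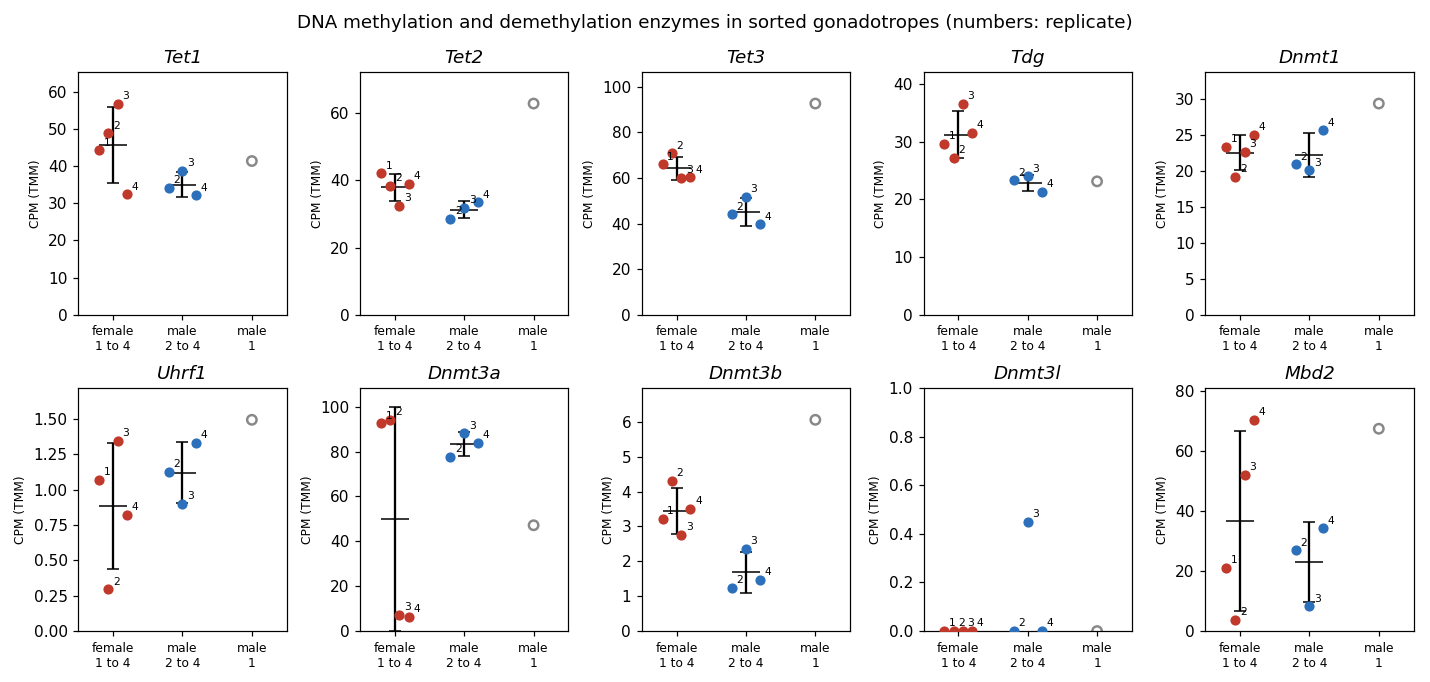
Level of each of the 10 genes in CPM (TMM-scaled, linear axis from 0), by sample. Filled points are female replicates 1 to 4 and male replicates 2 to 4, numbered, the bars show the mean and SD (not drawn for *Dnmt3l*), and the open point is male replicate 1. The males lie below all females for *Tet3*, *Tdg* and *Dnmt3b*, and females 3 and 4 lie far below every other sample for *Dnmt3a*.

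With the differences between genes expressed per kilobase of merged exons (GENCODE M21), *Mbd2* had the highest mean level in both sexes, at 7.18 ± 4.16 CPM per kb (SD, n = 3) in male replicates 2 to 4 and 11.4 ± 9.33 CPM per kb (SD, n = 4) in the females. Among the males it was followed by *Dnmt3a* (5.0 ± 0.318), *Tdg* (4.27 ± 0.259), *Dnmt1* (3.01 ± 0.409), *Tet3* (2.70 ± 0.364), *Tet1* (2.26 ± 0.221) and *Tet2* (1.86 ± 0.149), all in CPM per kb. The range of *Mbd2* overlapped those of *Dnmt3a*, *Tdg*, *Dnmt1* and *Tet3*, and the range of *Tet3* overlapped those of *Dnmt1* and *Tet1*, so these pairs are not ordered beyond their spread. *Dnmt3b* (0.331 ± 0.116 CPM per kb) and *Uhrf1* (0.263 ± 0.0506 CPM per kb) were lowest among the males apart from *Dnmt3l*, and their ranges overlapped. In the females the order after *Mbd2* was *Tdg* (5.82 ± 0.746), *Tet3* (3.85 ± 0.304), *Dnmt1* (3.06 ± 0.333), *Dnmt3a* (3.01 ± 3.01), *Tet1* (2.95 ± 0.658) and *Tet2* (2.25 ± 0.239), in CPM per kb, with *Dnmt3b* at 0.675 ± 0.129 and *Uhrf1* at 0.207 ± 0.105. There the range of *Mbd2* overlapped those of *Tdg*, *Tet3*, *Dnmt1*, *Dnmt3a*, *Tet1* and *Tet2*, that of *Dnmt3a* reached from below *Dnmt3b*'s highest to above *Tdg*'s lowest value, and that of *Tet1* overlapped those of *Tet3*, *Dnmt1* and *Tet2*. *Tdg*, *Tet3* and *Dnmt1* were separated from each other in that order.

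The comparison of the sexes asked which of these genes differ between female and male gonadotropes. Over all genes, edgeR's quasi-likelihood test called 471 of 20152 genes at an adjusted p below 0.05, which is 2.34%. It called 0 of the 9 members tested, and *Dnmt3l* did not pass the filter on low counts. At an unadjusted p below 0.05, 3 members (*Tet3*, *Tdg* and *Dnmt3b*) were lower in males, against 10.6% of all genes tested. DESeq2 called the same 3 members as lower in males, against 6.32% of the genes it tested. The 3 males lay below all 4 females for these 3 of 9 members, against 10.9% of all genes tested. The log2 fold change (male minus female) was below 0 for 7 of the 9 members, with a median of -0.40 beside -0.03 for all genes tested.

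The TET enzymes were measured well above the floor in every sample. *Tet3*, on chromosome 6 (83362373 to 83459084, minus strand, GRCm38), encodes the family member known for oxidising the paternal genome after fertilisation and for its expression in neurons. Its level was 66.0, 70.8, 60.2 and 60.3 CPM in female replicates 1 to 4 and 44.0, 51.7 and 39.7 CPM in male replicates 2 to 4. The sexes did not overlap. Females averaged 64.3 ± 5.08 CPM (SD, n = 4), 1.43 times the 45.1 ± 6.07 CPM (SD, n = 3) of the males, and the log2 fold change was -0.54 (SE 0.15, 95% interval -0.90 to -0.18, edgeR adjusted p = 0.117). In DESeq2 the adjusted p was 0.0170. The two-sided exact permutation p on log2(CPM + 1) was 0.0286, the smallest that 35 assignments can give, and it is not adjusted for the number of genes. With male replicate 1 at 92.7 CPM, above every other sample, the log2 fold change over all 8 samples was -0.17 (edgeR adjusted p = 0.902).

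*Tet2*, on chromosome 3 (133463679 to 133545139, minus strand), encodes the TET enzyme without a CXXC domain of its own and is best known as a gene mutated in blood cancers. It was at 42.1, 38.4, 32.5 and 39.1 CPM in female replicates 1 to 4 and at 28.6, 31.9 and 33.5 CPM in male replicates 2 to 4. Only male replicate 4 reached into the range of the females, above female replicate 3. The log2 fold change was -0.30 (SE 0.15, 95% interval -0.67 to 0.06, edgeR adjusted p = 0.336), and with all 8 samples it turned to 0.05, since male replicate 1 had 62.9 CPM. *Tet1*, on chromosome 10 (62804570 to 62908996, minus strand), encodes the CXXC-bearing TET enzyme studied in embryonic stem cells and germ cells. It was at 44.3, 48.7, 56.8 and 32.4 CPM in the females and at 34.1, 38.8 and 32.1 CPM in male replicates 2 to 4, so female replicate 4 lay among the males. Its log2 fold change was -0.40 (SE 0.21, 95% interval -0.90 to 0.09, edgeR adjusted p = 0.351).

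Summed per sample, the 3 TET genes reached 152.3, 157.9, 149.4 and 131.8 CPM in female replicates 1 to 4 and 106.8, 122.3 and 105.3 CPM in male replicates 2 to 4. These sums, of which *Tet3* was the largest part, did not overlap, whereas the levels of *Tet1* and of *Tet2* overlapped between the sexes. Male replicate 1 had the highest sum, 196.9 CPM. The share of each gene in the sum overlapped between the sexes. Per kilobase, *Tet3* made up 42.6 ± 2.53% (SD, n = 4) of it in females and 39.5 ± 2.31% (SD, n = 3) in males, *Tet1* 32.4 ± 5.73% and 33.2 ± 0.810%, and *Tet2* 25 ± 3.51% and 27.3 ± 3.07%.

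*Tdg*, on chromosome 10 (82629828 to 82650799, plus strand), encodes the thymine DNA glycosylase that removes the oxidised bases the TET enzymes make. It was at 29.6, 27.2, 36.6 and 31.6 CPM in female replicates 1 to 4 and at 23.3, 24.1 and 21.4 CPM in male replicates 2 to 4. The sexes did not overlap, and here male replicate 1, at 23.1 CPM, lay inside the range of the other males. The log2 fold change was -0.47 (SE 0.15, 95% interval -0.83 to -0.11, edgeR adjusted p = 0.158, DESeq2 adjusted p = 0.0470), and the exact permutation p was 0.0571. Over all 8 samples it was -0.44 (edgeR adjusted p = 0.387). A pseudogene, *Tdg-ps*, had 48 to 117 counts per sample, and *Glt8d2* overlaps *Tdg* on the other strand, so reads that these genes share make the level of *Tdg* less certain. Genes on the other strand also overlap *Tet2* and *Tet3*.

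**Figure D2:**
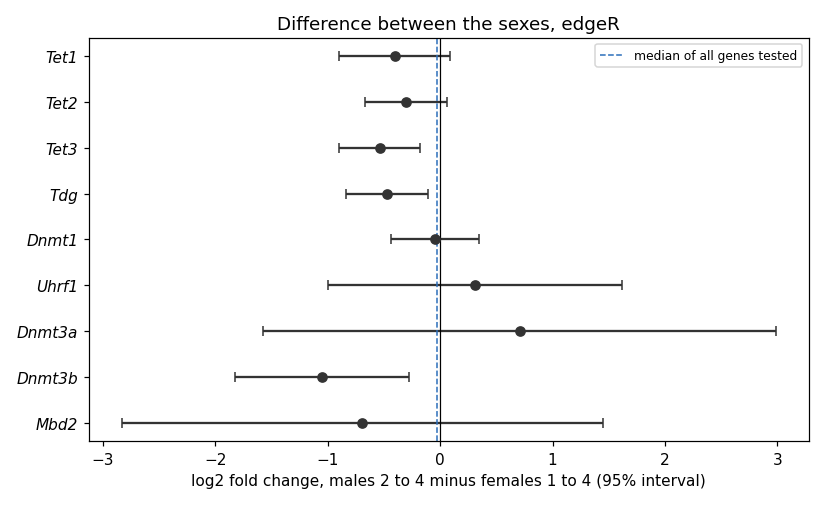
The log2 fold change of the 9 members tested (points), male replicates 2 to 4 minus female replicates 1 to 4, with 95% intervals from edgeR, and the median of all genes tested (dashed line, -0.03). The intervals of *Tet3*, *Tdg* and *Dnmt3b* lie below 0, and those of *Dnmt3a* and *Mbd2* are the widest, from -1.57 to 2.99 and from -2.83 to 1.45.

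Of the maintenance pair, *Dnmt1* (chromosome 9, 20907209 to 20959888, minus strand) was clearly expressed and *Uhrf1* (chromosome 17, 56303321 to 56323486, plus strand) had few counts. *Dnmt1* was at 23.4, 19.2, 22.6 and 25 CPM in female replicates 1 to 4 and at 20.9, 20.1 and 25.7 CPM in male replicates 2 to 4, with the sexes interleaved. Its log2 fold change was -0.04 (SE 0.17, edgeR adjusted p = 0.924), and the 95% interval, -0.44 to 0.35, holds levels from 0.739 to 1.27 times that of the females. Its sign turned with all 8 samples (0.09), where male replicate 1 was highest at 29.4 CPM, and without female replicate 4 or male replicate 3 (0.03 for each). *Uhrf1*, whose product recognises the hemimethylated CpG left by replication, had 25, 6, 44 and 19 counts in the females and 29, 24 and 29 counts in male replicates 2 to 4. At between 0.294 and 1.35 CPM, this gene gave a log2 fold change of 0.31 with a wide interval (-0.99 to 1.62, edgeR adjusted p = 0.822), which holds levels from 0.502 to 3.07 times that of the females. The 14 genes of the proliferating cell list, a group to which *Uhrf1* is commonly tied, summed to 59.5 to 69.9 CPM in the females and to 62.0 to 68.8 CPM in those males.

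Of the enzymes that set new methylation, *Dnmt3a* was the more abundant in most samples and by far the most uneven. *Dnmt3a* (chromosome 12, 3806007 to 3914443, plus strand) was at 92.5, 94.2, 7.22 and 6.23 CPM in female replicates 1 to 4, at 77.7, 88.2 and 84.0 CPM in male replicates 2 to 4 and at 47.2 CPM in male replicate 1. Females 1 and 2 lay just above the males, and females 3 and 4, with 236 and 144 counts, lay far below them, while male replicate 1 lay between. The females thus spanned the males on both sides, and the log2 fold change was 0.71 (SE 0.97, 95% interval -1.57 to 2.99, edgeR adjusted p = 0.761). Among the genes tested, 20.4% had a highest female at least 5 times the lowest, a limit set after the values were seen, and among the genes with a mean of at least 10 CPM 11.9% did.

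Of the genes with a mean of at least 10 CPM, 13 (0.124%), namely *Dnmt3a* and 12 others, had both female 3 and female 4 at no more than a fraction of 1/5 of the lowest of the other females and male replicates 2 to 4, a rule set after *Dnmt3a* was seen. Among the others were *Pym1*, *Sarnp* and *Eri3*, the genes most like *Dnmt3a* by the rule below, and *Supt16*, a subunit of the histone chaperone FACT that is widely used in transcription. *Supt16* was at 26.1, 59.5, 2.48 and 3.94 CPM in female replicates 1 to 4 and at 52.7, 36.2 and 49.3 CPM in male replicates 2 to 4. In male replicate 1 the 13 genes parted. *Sarnp* was at 0.703 CPM there and *Pym1* at 26.3 CPM, beside at least 39.9 CPM and at most 22.7 CPM in the other males. The files give 1 count per locus, with no transcript or exon, so the 2 *Dnmt3a* starts printed above cannot be told apart. How the loci of *Dnmt3a* and *Mbd2* were drawn is not given in the sources used here, so a low count of either in a sample may not measure low expression, which was not tested.

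*Dnmt3b* (chromosome 2, 153649450 to 153687730, plus strand), known for methylating the genome of the early embryo, was expressed at a much lower level. It was at 3.21, 4.32, 2.75 and 3.51 CPM in female replicates 1 to 4 (75 to 90 counts) and at 1.24, 2.36 and 1.47 CPM in male replicates 2 to 4 (32 to 63 counts). Again all the males lay below all the females, with male replicate 3 nearest. The female mean was 2.04 times the male mean, and the log2 fold change was -1.05 (SE 0.33, 95% interval -1.83 to -0.27, edgeR adjusted p = 0.144, DESeq2 adjusted p = 0.0423). The exact permutation p was 0.0286, again the smallest possible and not adjusted. Male replicate 1, at 6.06 CPM, was above all other samples, and with it the log2 fold change was -0.31 (edgeR adjusted p = 0.907). An antisense gene, *Dnmt3bos*, overlaps the locus and had 0 to 18 counts per sample. Neither the library kit nor the counting is described as using strand, so reads from the pair cannot be told apart.

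Per kilobase, the *Dnmt3a* level was 8.84 and 6.69 times that of *Dnmt3b* in female replicates 1 and 2, 0.805 and 0.545 times in female replicates 3 and 4, 19.2, 11.5 and 17.6 times in male replicates 2 to 4, and 2.39 times in male replicate 1. These ratios carry the limit on the low *Dnmt3a* counts of female replicates 3 and 4, and were not compared between the sexes. *Dnmt3l* (chromosome 10, 78041947 to 78063622, plus strand) had 0 counts in 7 of the 8 samples, which allows at most 0.147 CPM in any of them, and 12 counts (0.450 CPM) in male replicate 3.

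*Mbd2* (chromosome 18, 70568189 to 70626131, plus strand) varied as widely as *Dnmt3a*, in a different set of samples. It was at 21.0, 3.68, 51.9 and 70.3 CPM in female replicates 1 to 4, at 26.8, 8.24 and 34.2 CPM in male replicates 2 to 4 and at 67.3 CPM in male replicate 1. Female replicate 2 and male replicate 3 were lowest, and females 3 and 4, the pair with little *Dnmt3a*, were highest among the 7 samples compared. The highest female was 19.1 times the lowest, beside 15.1 times for *Dnmt3a*, and ratios at least as large were seen in 10.8% and 11.7% of the genes tested. For *Mbd2* the log2 fold change was -0.69 (SE 0.91, 95% interval -2.83 to 1.45, edgeR adjusted p = 0.750). No other symbol shares its locus in the table, nor that of any other member.

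**Figure D3:**
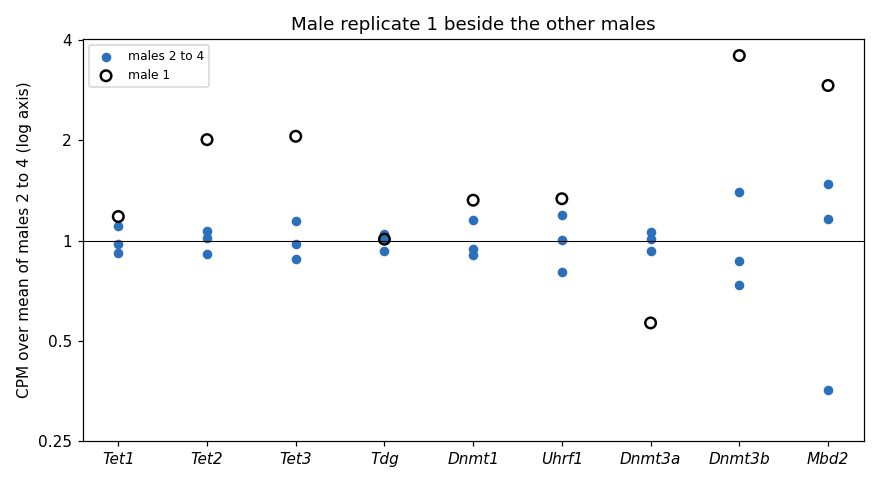
Level of male replicates 1 to 4 divided by the mean of male replicates 2 to 4, for the 9 members tested, on a log axis. Filled points are male replicates 2 to 4 and the open circle is male replicate 1, which lies at 3.59 times that mean for *Dnmt3b*, 2.92 times for *Mbd2*, 2.05 times for *Tet3* and 2.01 times for *Tet2*, but at 0.566 times for *Dnmt3a*.

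Male replicate 1 is 1 sample, so no p-value is given for its difference from the others. It was above all other 7 samples for 5 of 9 members (*Tet2*, *Tet3*, *Dnmt1*, *Uhrf1* and *Dnmt3b*), beside 21.5% of all genes kept. It was above the other 3 males for 7 of 9, adding *Tet1* and *Mbd2*, beside 36.6% of all genes, and below them for *Dnmt3a*. *Tdg*, at 1.01 times the mean of the other males, stayed inside their range. This sample also held the highest *Malat1* and *Neat1* sum and, at 28589 CPM, a gonadotrope marker sum within the range of the females. Their part in its high TET and *Dnmt3b* levels was not tested.

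The marker sums that parted the sexes are given here beside *Tet3*, *Tdg* and *Dnmt3b*. Without overlap, male replicates 2 to 4 had more of the gonadotrope and somatotrope markers (above) and of the thyrotrope markers (273 to 373 CPM against 84.2 to 221 CPM). They had less of the nuclear RNAs (7709 to 9962 CPM against 12221 to 15220 CPM) and slightly less of the 6 stromal markers (104 to 113 CPM against 114 to 167 CPM). The sums of the lactotrope, corticotrope, melanotrope, stem cell, endothelial, immune, erythroid and proliferating cell lists overlapped between the sexes. Of the single markers, edgeR called *Fshb* (1 of 5 gonadotrope markers) higher in males and 2 of 5 stem cell markers lower in males, *Sox9* (log2 fold change -1.02, adjusted p = 0.0417) and *Cdh26* (log2 fold change -1.62, adjusted p = 0.0470). No marker of the other lists was called, and 2.34% of all genes were. Whether these marker calls hold when a sample is left out is not reported here. The median log2 fold change was -1.26 for the erythroid markers, -0.84 for the 5 stem cell markers and -0.44 for the nuclear RNAs. It was -0.23 for the stromal and -0.21 for the melanotrope markers, and above 0 for every other list. No marker of any list was at 0 in all samples. The part of these differences in the levels of the methylation enzymes was not tested.

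The partners of these enzymes were read from lists of 84 genes, of which 79 were tested. By edgeR's test 0 of the 79 were called and 16 (20.3%) had an unadjusted p below 0.05, beside 19.9% of all genes tested. DESeq2 called 9 of 77, or 11.7%, and also 11.7% of all genes it tested, so the shares were close to the background. Uneven levels like those of *Dnmt3a* were seen here too, with a highest female at least 5 times the lowest in 16 of the 79 (20.3%), beside 20.4% of all genes tested, and the limit given for *Dnmt3a* on reading a low count as low expression applies to them. The median log2 fold change was -0.21 beside -0.03 for all genes. Among the readers and maintenance partners (13 tested, 0 called, median -0.49) the lowest adjusted p was that of *Zbtb38*, which encodes a zinc finger protein that binds methylated DNA. *Zbtb38* was at 66.9, 124, 97.8 and 66.2 CPM in the females and at 209, 174 and 149 CPM in male replicates 2 to 4, without overlap (log2 fold change 0.98, SE 0.26, edgeR adjusted p = 0.0998). Among the subunits of NuRD, the complex MBD2 recruits (11 tested, 0 called, median -0.19), it was *Rbbp7*, a histone-binding subunit encoded on the X chromosome. *Rbbp7* was at 114, 106, 127 and 111 CPM in the females and at 179, 167 and 158 CPM in those males, again without overlap (log2 fold change 0.53, SE 0.12, edgeR adjusted p = 0.0704). Both had values opposite in direction to the medians of their lists. Male replicate 1, at 48.7 CPM for *Zbtb38* and 71.3 CPM for *Rbbp7*, lay below every female.

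The proteins that bind unmethylated CpG (6 tested, 0 called) had the lowest median, -0.55. *Fbxl19*, whose CXXC protein brings chromatin complexes to CpG islands, had the lowest adjusted p of all 79 genes. It was at 5.66, 6.53, 6.61 and 3.42 CPM in the females and at 1.90, 1.80 and 0.780 CPM in male replicates 2 to 4 (log2 fold change -1.91, SE 0.41, edgeR adjusted p = 0.0623). Among regulators of the TET and DNMT enzymes (15 tested, 0 called, median -0.22, 12 of 15 below 0), it was *Trim28*, the scaffold that keeps methylation at imprinted genes and transposons. *Trim28* was at 52.9, 59.2, 45.8 and 75.0 CPM in the females and at 34.4, 30.4 and 32.2 CPM in those males (log2 fold change -0.87, SE 0.20, edgeR adjusted p = 0.0747). In both genes all the males lay below all the females, and male replicate 1, at 5.75 and 79.7 CPM, had values like the females or higher.

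Enzymes of methyl donor and 2-oxoglutarate metabolism, which supply S-adenosylmethionine to the DNMTs and the cosubstrate to the TETs, showed no common direction (21 tested, 0 called, 10 below and 11 above 0, median 0.03). *Shmt1*, a folate-cycle enzyme, had the lowest adjusted p, with 3.13, 2.11, 4.04 and 4.24 CPM in the females and 8.24, 6.89 and 8.58 CPM in male replicates 2 to 4 (log2 fold change 1.20, SE 0.27, edgeR adjusted p = 0.0721). For base excision repair after demethylation (11 tested, 0 called, median -0.22) it was *Gadd45a*, which encodes a stress-induced adaptor linked to demethylation (log2 fold change -0.90, SE 0.38, edgeR adjusted p = 0.25). Among genes outside the lists, noted after their values were seen and not searched for in full, edgeR called lower in males *Ung*, a uracil glycosylase of base excision repair (16.4 against 27.3 CPM on average, log2 fold change -0.75, adjusted p = 0.0494), and *Mbd6*, of the methyl-CpG-binding domain family (24.4 against 55.0 CPM, log2 fold change -1.19, adjusted p = 0.0206). When each of the 7 samples was left out in turn, *Ung* was called in 0 and *Mbd6* in 3 of the 7 fits (edgeR adjusted p of 0.0853 to 0.165 and of 0.0437 to 0.0833). Of the cytosine deaminases, 2 of 4 were tested and 0 called, and *Apobec1* averaged 21.5 ± 3.35 CPM (SD, n = 4) over the females, beside 25.6 ± 3.82 CPM (SD, n = 3) over those males (edgeR adjusted p = 0.562).

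**Figure D4:**
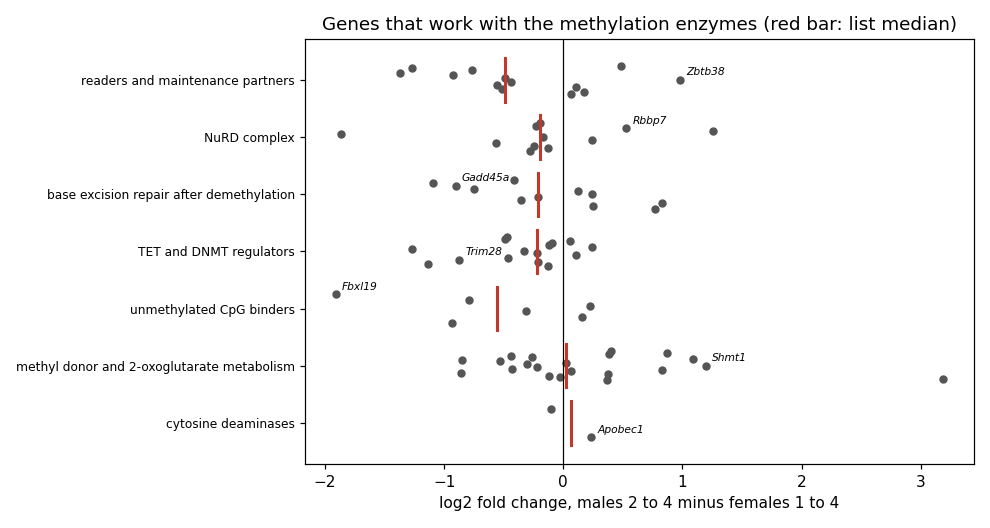
The log2 fold change (male replicates 2 to 4 minus females) of the 79 genes tested of 7 lists around the methylation enzymes, 1 point per gene, with the list median as a red bar and the gene of lowest p named. The points of each list lie on both sides of 0, and the medians run from -0.55 for the binders of unmethylated CpG to 0.07 for the deaminases.

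The genes most like each member were the 3 with the highest Pearson correlation of log2(CPM + 1) over the 7 samples without male replicate 1, among 9786 genes. For *Tet3* they were *Tmem164*, *Ninl* and *March7* (r of 0.982 to 0.984), for *Tet2* *Sdk1*, *Wipi2* and *Slc25a1* (0.981 to 0.983) and for *Tet1* *Ttc24*, *Irs1* and *Calm3* (0.959 to 0.973). *Tdg* was most like *Tenm3*, *Rnf182* and *Mbp* (0.971 to 0.980), and *Dnmt3b* most like *Crtc1*, *Rab40c* and *Fam149b* (0.974 to 0.983). *Dnmt1* ran with *Bms1*, *AI837181* and *Gpr107* (0.940 to 0.986), *Uhrf1* with *Coq10b*, *Cyp51* and *Usp31* (0.958 to 0.980), and *Mbd2* with *Fam8a1*, *Avpi1* and *Cdyl* (0.938 to 0.966). The highest values, 0.997 to 0.998, were those of *Pym1*, *Sarnp* and *Eri3* with *Dnmt3a*, where the 7 points form a high and a low group and r describes little more than that split. These correlations are descriptions over 7 samples that also share depth and sex, and no p is given.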

How the data were processed

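RNA of sorted EGFP-expressing gonadotropes was sequenced as 4 female and 4 male libraries made with a low-input kit. The authors trimmed reads with cutadapt, mapped them to mm10 with STAR and counted them per gene with featureCounts at default parameters, and deposited unnormalized counts in a single table. Of the members, 8 are entries of MSTRG loci, a name form of StringTie, and how these loci were drawn is not given in the sources used here.

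The deposited counts of male replicates 2 to 4 and female replicates 1 to 4 were compared with edgeR 4.0.16 (quasi-likelihood test, TMM factors, filterByExpr, Benjamini-Hochberg adjustment over 20152 genes, threshold 0.05) in R 4.3.3. The standard error is the absolute log2 fold change divided by the square root of F. Single members also had a two-sided exact permutation test over 35 assignments, and a pseudocount of 1 was used. CPM used TMM factors over 8 samples. Alternatives were DESeq2 1.42.0, other scalings, filters and sample sets, a replicate block and symbol sums. Tables were made with Python 3.11.15, pandas 2.3.3 and scipy 1.17.1. In counts simulated for the comparison of the sexes, the test ran on 19240 genes. It recovered 64.9% of 185 changed genes, with 1.64% of calls false. The size of change set in these counts is not given here, and recovery at the fold changes of the members was not tested.

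The members, lists and tests were chosen with earlier results of these data known. The genes named are all members, the partner genes past the threshold (none) or with the lowest adjusted p of their list, and the 3 genes most like each member with a mean of at least 10 CPM, without members and Gm or Rik names. *Supt16*, *Ung*, *Mbd6*, *Sox9*, *Cdh26* and *Fshb* were named after their values were seen. No sequence of *Mbd2* and no protein sequence is reported here.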

Additional observations from a re-analysis of the deposited data

Results flagged for a closer look

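In groups of 4 samples, the highest or lowest value was tested for its distance from the others, and 2 of 19 groups passed Dixon's 95% critical value for the gap over the range, where chance gives about 1 in 20. *Tet2* in male replicate 1, at 62.9 CPM, was separated from the other males, at 28.6 to 33.5 CPM, by 0.856 of the range. *Dnmt3l* in male replicate 3, at 0.450 CPM (12 counts), stood beside 0 counts in the other males, where any value above 0 passes by construction.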

How the results depend on the processing

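The number of genes called between the sexes, 471, was 2329 with DESeq2, 808 with library size alone, 177 with no filter beyond 1 count, 67 with all 8 samples, and between 88 and 171 when each of the 7 replicates was left out. Every one of these left-out samples moved the count by more than 1.5 times, and male replicate 3 moved it most. With a replicate block the count was 0. The labels do not say that samples of the same number belong together. Deviations of same-numbered samples correlated at -0.0265 to -0.00226, but 3 pairs cannot show whether such samples shared a preparation. The block called 0 members. DESeq2 called 3 members (*Dnmt3b*, *Tdg* and *Tet3*), and every other setting, each left-out replicate included, called 0. Of the partner genes, DESeq2 called 9 of 77 (11.7%, as of all genes), library size alone 3 of 79 (3.80%, beside 4.01% of all genes; *Fbxl19*, *Kmt2b* and *Trim28*), and a minimum of 10 counts in every sample 1 of 77 (1.30%, beside 582 of 15991 or 3.64% of all genes; *Fbxl19*), named after their values were seen. Of 134 alternative log2 fold changes of members, 4 turned sign. *Tet2* became 0.0451 and *Dnmt1* 0.0902 with all 8 samples, and *Dnmt1* became 0.0326 without female replicate 4 and 0.0285 without male replicate 3. The lowest *Dnmt1* value with 1 sample left out was -0.158 (without male replicate 4), and over all alternatives -0.261 (library size alone). The cause of the turned signs was not tested. Over its alternatives the adjusted p ran from 0.0170 to 0.902 for *Tet3*, from 0.0470 to 0.387 for *Tdg* and from 0.0423 to 0.907 for *Dnmt3b*, the highest in each with all 8 samples. Library size alone moved the median of all genes by -0.21, and relative to that median *Tet3* stood at -0.50, *Tdg* at -0.44 and *Dnmt3b* at -1.01. Leaving out 1 sample moved *Dnmt3a* between 0.36 and 1.24 and *Mbd2* between -1.08 and -0.14, and the replicate block put *Dnmt3a* at 2.5 (edgeR adjusted p = 0.401). With a pseudocount of 0.1, no exact permutation test changed its side of the threshold, and the exact permutation p of *Tet3* and of *Dnmt3b* stayed at 0.0286. Ranking by Spearman shared 0 or 1 of the 3 genes most like *Tet1*, *Tet2*, *Tet3*, *Tdg*, *Dnmt1*, *Uhrf1*, *Dnmt3a* and *Dnmt3b*. Depth limits *Dnmt3l*, which was not tested, and *Uhrf1*, with 6 to 44 counts per sample.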

Other observations

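Genes that overlap the members on the other strand also had counts. *Dnmt3aos*, antisense within *Dnmt3a*, had 20, 11, 0 and 15 counts in female replicates 1 to 4, beside 2160, 1919, 236 and 144 counts of *Dnmt3a*. It had 11 counts in male replicate 2, 0 in male replicates 3 and 4, and 13 in male replicate 1. *Glt8d2*, which overlaps *Tdg*, had 0 to 36 counts in the females and 67 to 166 in male replicates 2 to 4. *Tdg* had 554 to 1197 counts in the females and 466 to 642 in those males, which overlapped. In CPM, *Glt8d2* was at 0 to 1.18 in the females and at 2.60 to 7.15 in those males. This was the opposite order to *Tdg*, at 27.2 to 36.6 and 21.4 to 24.1 CPM. *Aire*, which overlaps *Dnmt3l*, had 0 counts in every sample but male replicate 1, where it had 12.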
